A study of Mus musculus with 6 samples.

Results

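Blastocysts turn from pyruvate to glucose as they expand, and glucose then enters through facilitative carriers, is phosphorylated by hexokinase and is either split to pyruvate by glycolysis or oxidized in the pentose phosphate pathway. Glycolysis yields ATP, pyruvate and lactate. The oxidative arm of the pentose phosphate pathway yields NADPH, used against oxidants and in lipid synthesis, and the non-oxidative arm yields ribose for nucleotides. The genes described here are the 33 that encode the glucose and lactate carriers and the enzymes of both pathways, out of 55774 rows in the table, chosen by gene symbol and not by a threshold on measured values. All 33 were present, and each had a single row except Aldoa, whose second row (ENSMUSG00000114515) held at most 0.137 FPKM and was not used.

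RNA was sequenced from 6 libraries of 10 wild-type mouse blastocysts each. The embryos came as 2-cell embryos from ICR females and were cultured in CZB medium with extracellular vesicles from human Fallopian tubes. In the oEV-EMT group (3 libraries) the vesicles came from women with endometriosis, and in the oEV-ctrl group (3 libraries) the labels name uterine fibroids for the donors, whereas the methods describe another gynaecological condition. No library without vesicles was analysed here, and the labels do not tie libraries to separate cultures or donors, so p-values measure the spread between these libraries, which may be technical.

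Levels are given as FPKM, in which fragments are divided by transcript length and by the total of the library and which can be compared between genes. Differences are log2 fold changes of oEV-EMT over oEV-ctrl on the log2(FPKM + 1) scale, fitted with limma over the 11924 genes that reached 1 FPKM in 3 or more libraries, with p-values adjusted by Benjamini-Hochberg over those genes. This scale understates the change of genes with low values. The relative depth of the libraries differed 2.07 times, and the ranges of the groups overlapped. All tested genes together had a median of 0.17 as deposited and 0.0099 after median-of-ratios scaling, so differences are also given on that second scale. The unannotated row new_gene48 held 15.3% to 19.0% of the FPKM sum in the oEV-EMT libraries and 19.7% to 31.5% in the oEV-ctrl libraries, and mitochondrial genes held 3.93% to 4.84% and 5.96% to 7.45%. Neither share overlapped between the groups, and their part in the differences was not tested. Trophectoderm markers summed to 3123 to 4734 FPKM with oEV-EMT and 3075 to 4826 with oEV-ctrl. Most of this sum came from Krt8 and Krt18, and none of these markers separated the groups. Epiblast markers summed to 81.8 to 105 and 41.0 to 62.3, without overlap between the groups. Of the 6 markers, Nanog (46.2 to 56.1 against 13.0 to 37.5), Pou5f1 and Fgf4 separated the groups, whereas Sox2 (1.13 to 3.24 against 1.99 to 3.17), Esrrb and Klf2 overlapped. The part of these markers in the results was not tested, and in pooled embryos fewer cells of a type and less RNA per cell cannot be told apart.

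The row of Gapdh, which encodes the enzyme that oxidizes glyceraldehyde phosphate and which the study used as the reference gene in real-time RT-PCR, does not hold most of the signal assigned to Gapdh-like sequence. The primer sequences used for this gene, the product they define in the spliced transcript and its position are shown here because the same letters occur in many pseudogenes. In the product, capitals mark the primer sites.
Gapdh forward primer: tgcaccaccaactgcttag
Gapdh reverse primer: gatgcagggatgatgttc
Gapdh product: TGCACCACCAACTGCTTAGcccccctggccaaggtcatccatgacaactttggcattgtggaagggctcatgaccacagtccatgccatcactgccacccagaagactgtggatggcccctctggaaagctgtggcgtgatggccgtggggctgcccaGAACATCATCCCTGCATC

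The product has 176 bases and spans exons 4 to 5 of Gapdh, at chr6:125162605-125162914 on the minus strand of GRCm38. Both primer sequences were found without mismatch in 83 other annotated genes, of which 82 are pseudogenes. In 63 of the 83 the product has the same length as in Gapdh. In the others it has 143 (Gm8254) to 184 (Gm8941) bases. All are shorter than the genomic stretch given above, which includes the intron between the exons. Among the 83, 17 had a mean of at least 1 FPKM. Of the 83, 53 are among the pseudogene rows summed below, and these 53 held 98.0% of the summed FPKM of Gapdh and those rows.

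In the 3 oEV-EMT libraries the Gapdh row (ENSMUSG00000057666) held 3.18, 2.59 and 48.6 FPKM, and in the 3 oEV-ctrl libraries 13.6, 3.65 and 3.57. oEV-EMT 3 and oEV-ctrl 1 stood above the other 4 libraries, and the groups overlapped. The row ranked 4414 of 55487 annotated rows by mean. The log2 fold change was 0.42 ± 1.23 (SE, n = 3 per group; limma, adjusted p = 0.894), and it turned to -0.81 without oEV-EMT 3.

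Processed pseudogenes are intron-free copies of an mRNA inserted elsewhere in the genome, and 88 of them shared stretches of at least 50 bases with Gapdh at the share required here. Their rows summed to 1632, 1270 and 1269 FPKM with oEV-EMT and to 917, 849 and 1062 with oEV-ctrl. All 3 oEV-EMT sums lay above all 3 oEV-ctrl sums, with means of 1390 ± 210 and 943 ± 109 (SD, n = 3 per group; exact permutation test, two-sided, p = 0.1, below which 3 libraries against 3 cannot go). Gm13394, Gm2606, Gm5559, Gm12070 and Gm7336 held 87.8% of the pseudogene sum, and 94.7% to 95.6% of the stretches of each of these genes occur in Gapdh. Gm13394 (chr2:28933610-28934609) alone had 589, 476 and 518 FPKM against 341, 319 and 387. Of the 17 pseudogene rows with a mean of at least 1 FPKM, 11 were higher in oEV-EMT without overlap as deposited. The share over all tested genes was 18.1%. These rows share sequence with Gapdh and may divide the same reads, so they are not separate observations. Ratios of group means over the 17 ranged from 0.776 to 1.68.

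Gapdh and its pseudogenes together came to 1636, 1272 and 1318 FPKM with oEV-EMT and 931, 853 and 1066 with oEV-ctrl, which would rank 102 among the annotated rows. The Gapdh row itself held between 0.194% and 3.69% of that total. All rows that share sequence with Gapdh, including the protein-coding Gm3839 and Gm10358, were also summed with it, weighted for length. Fitted as 1 gene among all others, this wider sum had a log2 fold change of 0.58 ± 0.19 (SE; limma, adjusted p = 0.210) as deposited. After median-of-ratios scaling it was 0.38 ± 0.19 (adjusted p = 0.433). The groups did not overlap on either scale, and neither value passed the test. How reads that fit several copies were assigned is not given in the sources used here, so the sum may count a fragment more than once, and reads from the gene and from expressed copies cannot be told apart.

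**Figure D1:**
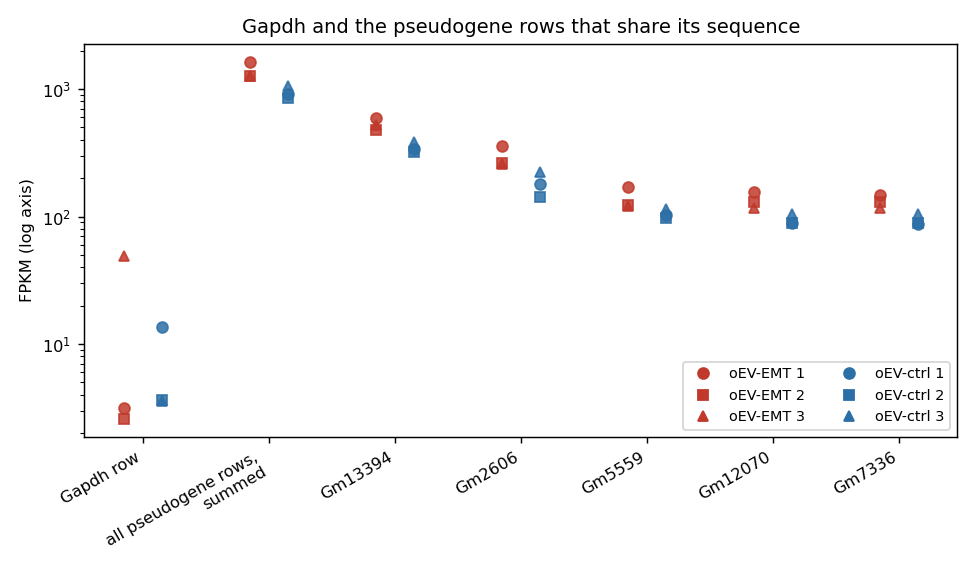
FPKM (log axis) of the Gapdh row, of the sum of its 88 pseudogene rows and of the 5 highest pseudogene rows, with 1 point per library (red, oEV-EMT, blue, oEV-ctrl). The Gapdh row lies between 2.59 and 48.6 FPKM, whereas the pseudogene rows sum to 849 to 1632.

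The thresholds of the study were an adjusted p of 0.05 or less and a log2 fold change of 1 or more in either direction. Over the 29 genes of the list that were tested with limma, none passed both, and the background over all genes was 0%. The study applied these thresholds with DESeq2 and reported genes past them, so the counts here are not those of its method. At an unadjusted p of at most 0.05, 6 of 29 (20.7%) were higher in oEV-EMT, namely Slc2a1, Adpgk, Eno1, Pgls, Rpe and Taldo1, against a background of 12.8%, and 0 were lower against 2.55%. After median-of-ratios scaling these were 2 (6.90%, Slc2a1 and Adpgk) against 6.43%, and 0 against 6.39%. The groups did not overlap for 7 of 29 (24.1%), all higher in oEV-EMT, with a background of 18.1%, and for 0 in the lower direction with a background of 4.34%. On the scaled values these were 2 against 9.85% and 0 against 10.3%. The share higher in oEV-EMT at an unadjusted p was thus near the background on the scaled values.

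The median log2 fold change of the 29 genes was 0.40 as deposited, or 0.23 above the median of all genes, and 0.22 after scaling. Leaving out each library gave 0.088 (without oEV-ctrl 2) to 0.31 (without oEV-EMT 3) above that median, and 0.14 without oEV-EMT 1. As deposited, where the median of all genes was itself 0.17, 27 of 29 values lay above 0. After scaling, with that median at 0.0099, 21 of 29 did. On both scales 21 of 29 lay above the median of all genes. oEV-EMT 1 was the highest library for 19 of 29 (65.5%), against 37.4% of all tested genes. oEV-ctrl 2 was the lowest for 12, and the share of all genes lowest there was not computed. Hk1, Pfkfb3, Aldoc and Slc16a3 were too low to be tested.

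**Figure D2:**
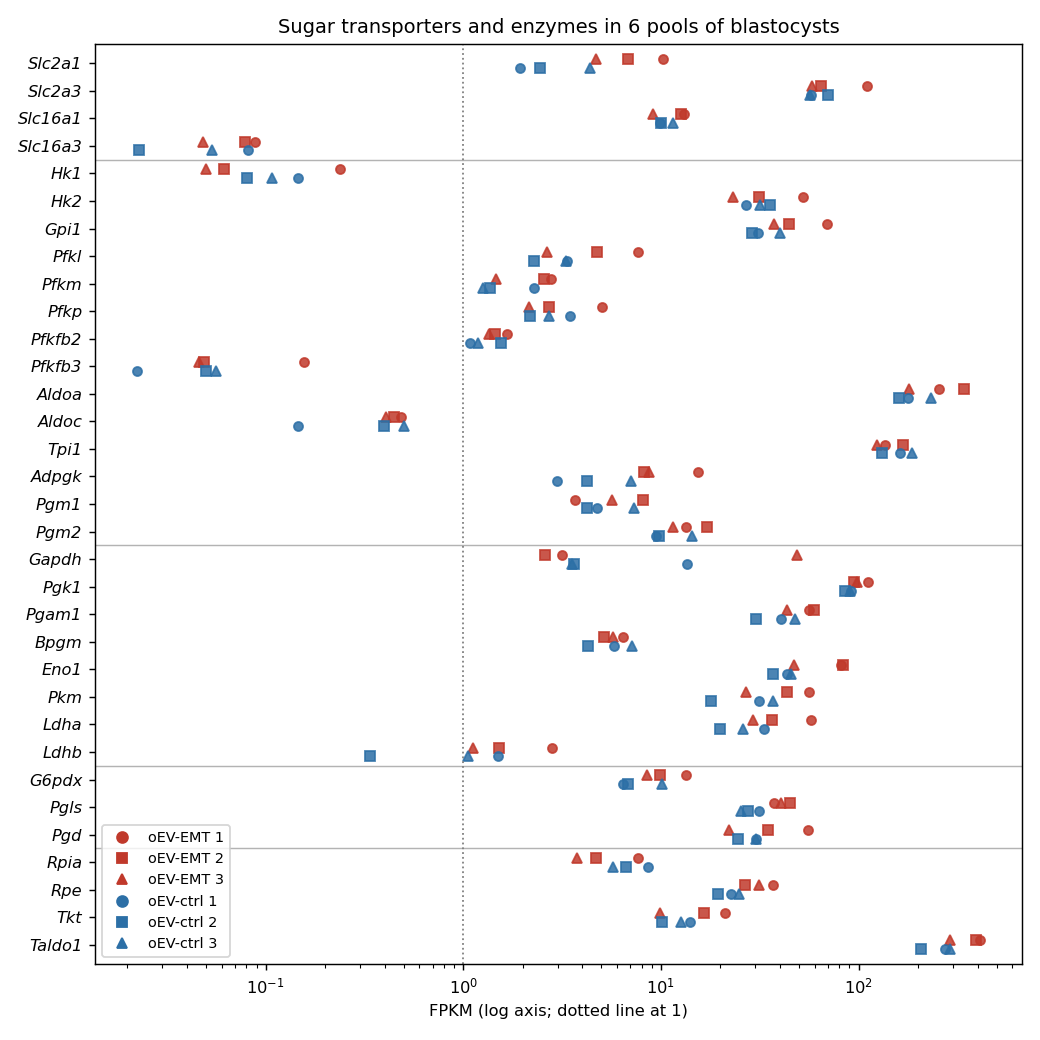
FPKM per library (log axis) of the 33 genes, grouped from top to bottom as carriers, upper glycolysis with phosphoglucomutases, lower glycolysis, oxidative and non-oxidative pentose phosphate enzymes. Slc16a3, Hk1, Pfkfb3 and Aldoc lie below 1 FPKM in all 6 libraries, and Taldo1 reaches 413.

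**Figure D3:**
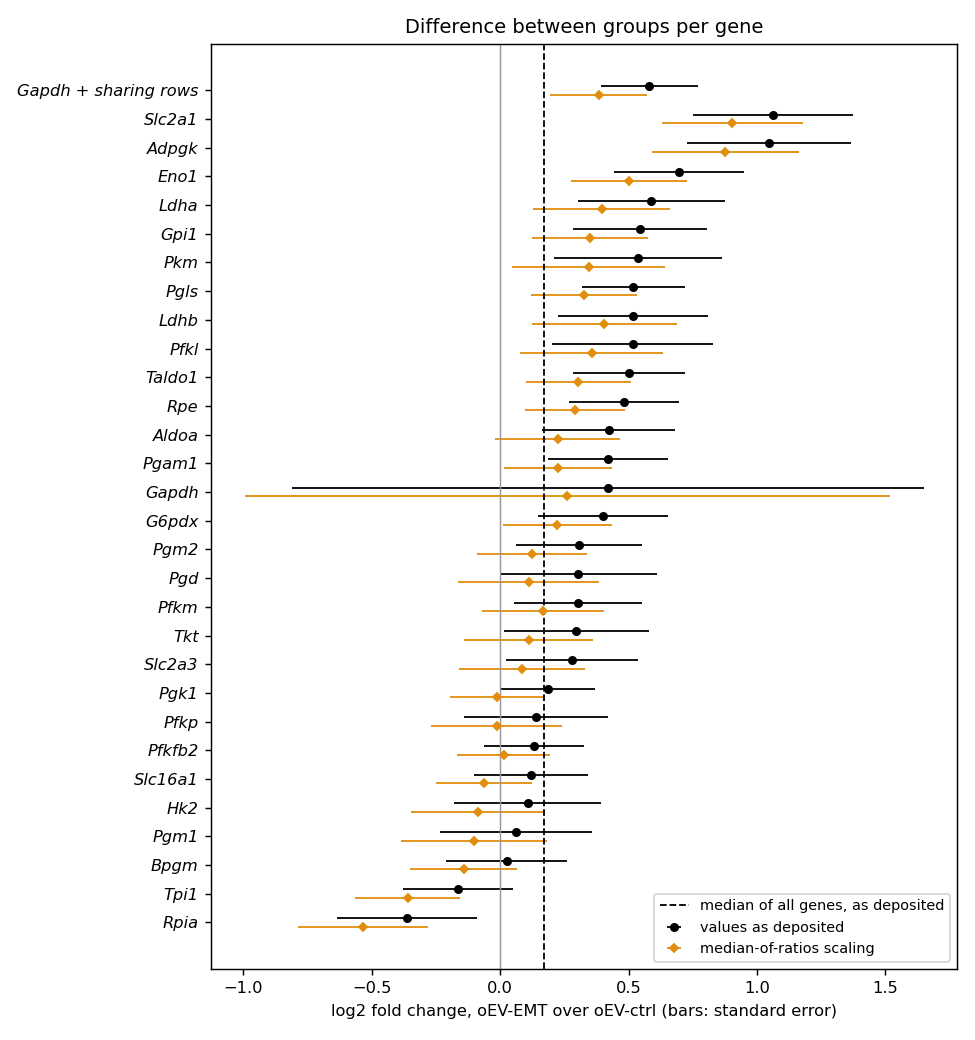
Log2 fold change of oEV-EMT over oEV-ctrl with its standard error for the 29 tested genes and for Gapdh summed with the rows that share its sequence, as deposited (black circles) and after median-of-ratios scaling (orange diamonds). Slc2a1 and Adpgk lie farthest to the right on both scales, at 1.06 and 1.05 as deposited, and Rpia lies farthest to the left at -0.36.

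Slc2a1 (ENSMUSG00000028645) encodes GLUT1, the glucose carrier of most cell types. It had 10.2, 6.79 and 4.68 FPKM with oEV-EMT and 1.94, 2.46 and 4.35 with oEV-ctrl. Every oEV-EMT library was above every oEV-ctrl library, although oEV-EMT 3 and oEV-ctrl 3 nearly met. The mean was 2.47-fold higher and the log2 fold change was 1.06 ± 0.31 (SE; limma, unadjusted p = 0.00645, adjusted p = 0.179), and 0.90 after scaling. Leaving out each library in turn gave 0.81 to 1.31. Its only listed sequence sharer, Gm12868 on the opposite strand, was at 0.

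Slc2a3 encodes GLUT3, the high-affinity glucose carrier. It was the main glucose carrier transcript by level, at 110, 64.5 and 58.4 FPKM with oEV-EMT and 57.6, 69.9 and 56.9 with oEV-ctrl. Only oEV-EMT 1 stood apart, and the log2 fold change was 0.28 (adjusted p = 0.632). Slc2a1 therefore made up a small part of the sum of both carriers, at 8.50%, 9.52% and 7.42% with oEV-EMT and 3.26%, 3.40% and 7.11% with oEV-ctrl. These shares do not depend on the scaling between libraries and did not overlap, with means of 8.48% ± 1.05 and 4.59% ± 2.18 (SD, n = 3 per group; exact two-sided permutation test, p = 0.1, adjusted p = 0.45 over 9 shares).

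The lactate and pyruvate carrier Slc16a1 (MCT1) had 13.0, 12.6 and 9.08 FPKM with oEV-EMT and 9.86, 10.0 and 11.5 with oEV-ctrl, so the groups overlapped. Slc16a3 (MCT4), the lactate exporter of strongly glycolytic cells, stayed between 0.0228 and 0.0889 FPKM. Slc16a1 thus held 99.4% and 99.5% of the sum of both in the group means.

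Hexokinases trap glucose as its phosphate. Hk2, the inducible form, had 52.2, 31.4 and 23.3 FPKM with oEV-EMT and 27.0, 35.6 and 31.6 with oEV-ctrl. The oEV-EMT libraries held both the highest and the lowest value, and the log2 fold change of 0.11 (adjusted p = 0.877) turned to -0.085 after scaling. Hk1 was at 0.238, 0.0618 and 0.05003 against 0.146, 0.0805 and 0.108, so that Hk2 held 99.7% and 99.6% of the sum. An antisense gene, Hk1os, overlaps Hk1, and without a stated strand setting their reads cannot be told apart.

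Adpgk (ENSMUSG00000025236) encodes a glucokinase that uses ADP in place of ATP. It had 15.5, 8.25 and 8.70 FPKM with oEV-EMT and 2.97, 4.24 and 7.06 with oEV-ctrl. As for Slc2a1, the groups did not overlap and oEV-ctrl 3 was the highest of its group. The mean was 2.27-fold higher, with a log2 fold change of 1.05 ± 0.32 (SE; limma, unadjusted p = 0.00802, adjusted p = 0.190), 0.88 after scaling and 0.78 to 1.32 on leaving out each library. No other gene shared its sequence by the rule used.

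Phosphofructokinase commits sugar to glycolysis, and its liver (Pfkl), muscle (Pfkm) and platelet (Pfkp) forms were all present at low levels. Pfkl had 7.62, 4.73 and 2.65 FPKM with oEV-EMT and 3.36, 2.27 and 3.32 with oEV-ctrl. Pfkm had 2.77, 2.56 and 1.46 against 2.29, 1.37 and 1.26. Pfkp had 5.04, 2.72 and 2.15 against 3.49, 2.17 and 2.72. In all 3 genes the groups overlapped and oEV-EMT 1 was the highest library. The log2 fold changes were 0.52, 0.30 and 0.14 (adjusted p of 0.456, 0.587 and 0.836).

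Within the sum of these forms, Pfkp took 32.6%, 27.2% and 34.4% with oEV-EMT and 38.2%, 37.4% and 37.2% with oEV-ctrl. Its share was lower in every oEV-EMT library, with means of 31.4% ± 3.76 and 37.6% ± 0.495 (SD, n = 3 per group; exact permutation p = 0.1, adjusted p = 0.45). Pfkl took 46.3% ± 3.61 and 40.5% ± 4.51, with overlap (exact permutation p = 0.2, adjusted p = 0.6). Exons of Pitrm1 overlap Pfkp on the opposite strand, and Pfkp held 12.9% of the FPKM of both rows.

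**Figure D4:**
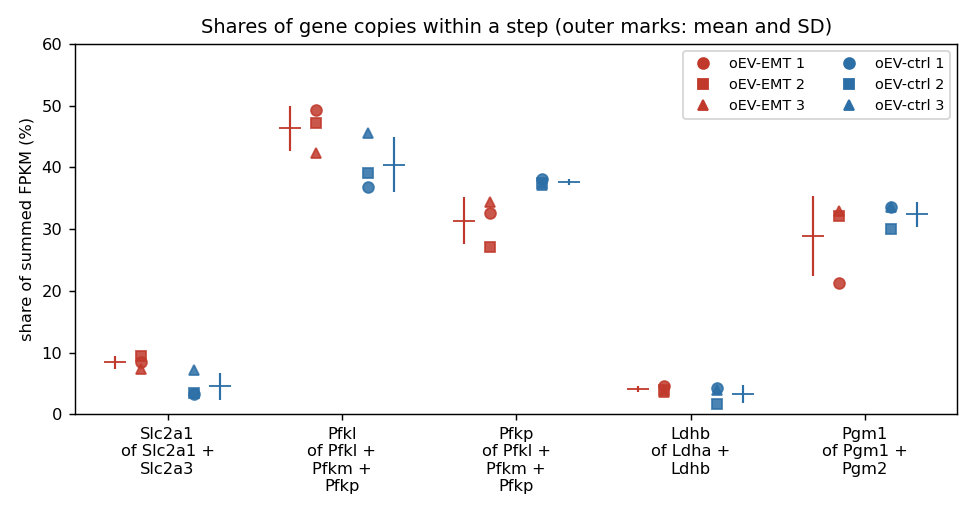
Share of the summed FPKM (%) that 1 gene takes among genes for the same step, with 1 point per library and, beside the points, the mean and SD (n = 3) of each group. Every oEV-EMT library lies above the oEV-ctrl libraries for Slc2a1 and below them for Pfkp, and the other shares overlap.

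The kinase-phosphatases of the list, which set the activator of phosphofructokinase, were low. Pfkfb1, of the same family but not on the list, was higher. It ranged from 6.96 to 13.2 FPKM with oEV-EMT and from 3.90 to 9.28 with oEV-ctrl (log2 fold change 0.46, adjusted p = 0.533). Pfkfb2 had 1.67, 1.44 and 1.35 FPKM with oEV-EMT and 1.08, 1.56 and 1.19 with oEV-ctrl (log2 fold change 0.13). Pfkfb3 had 0.156, 0.0486 and 0.0460 against 0.0224, 0.0502 and 0.0563, which shows 1 high library in oEV-EMT and no separation of the groups.

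The enzymes between these steps were abundant. Gpi1, which converts glucose phosphate to fructose phosphate, ranged from 37.3 to 69.0 FPKM with oEV-EMT and from 29.0 to 40.0 with oEV-ctrl (log2 fold change 0.54, adjusted p = 0.351). Aldoa, the main aldolase, ranged from 180 to 343 and from 159 to 232 (0.42, adjusted p = 0.462), whereas Aldoc was at most 0.4998 in any library. Tpi1, which interconverts the triose phosphates, was 1 of 2 genes with a log2 fold change below 0, ranging from 123 to 168 and from 131 to 187 (log2 fold change -0.16, adjusted p = 0.743).

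The phosphoglucomutases Pgm1 (ENSMUSG00000025791) and Pgm2 (ENSMUSG00000029171), whose symbols were exchanged in earlier mouse annotation, link glycolysis with glycogen and with ribose. Pgm1 ranged from 3.66 to 8.11 FPKM with oEV-EMT and from 4.21 to 7.27 with oEV-ctrl. Pgm2 ranged from 11.5 to 17.1 and from 9.44 to 14.4. Their log2 fold changes were 0.062 and 0.31, with overlap in both.

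In lower glycolysis, all 8 genes, the Gapdh row among them, had a log2 fold change above 0 as deposited. Their median was 0.47, or 0.30 above the median of all genes, and 7 of the 8 lay above that median. After scaling 6 of 8 lay above 0. Pgk1, the ATP-forming phosphoglycerate kinase, had 112, 94.6 and 98.2 FPKM with oEV-EMT and 91.6, 85.2 and 90.4 with oEV-ctrl. The groups did not overlap, but the log2 fold change was 0.19 (adjusted p = 0.661) and became -0.011 after scaling.

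Eno1 (ENSMUSG00000063524), the ubiquitous enolase, had 81.2, 83.6 and 47.3 FPKM with oEV-EMT and 43.5, 37.0 and 45.7 with oEV-ctrl. oEV-EMT 3 lay just above the oEV-ctrl libraries. The log2 fold change was 0.70 ± 0.25 (SE; limma, unadjusted p = 0.0193, adjusted p = 0.240), and 0.50 after scaling, where the groups overlapped. Eno1 shares sequence with Eno1b and with pseudogenes and held 41.7% of the FPKM of all these rows. Summed with them, its log2 fold change was 0.63 and the groups overlapped.

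Pkm, the pyruvate kinase of embryonic and most adult cells, had 55.9, 43.7 and 26.9 FPKM with oEV-EMT and 31.5, 17.9 and 36.8 with oEV-ctrl. Ldha, which reduces pyruvate to lactate, had 57.5, 36.3 and 29.3 against 33.3, 20.0 and 26.0. Ldhb, the heart-type subunit, had 2.81, 1.52 and 1.11 against 1.503, 0.339 and 1.06. All 3 overlapped between the groups, with oEV-EMT 1 highest and oEV-ctrl 2 lowest in each. Their log2 fold changes were 0.54, 0.59 and 0.52 (adjusted p of 0.462, 0.359 and 0.424), and Ldhb held 4.11% and 3.30% of the sum of both subunits in the group means.

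Pgam1, the phosphoglycerate mutase, ranged from 43.5 to 59.3 FPKM with oEV-EMT and from 30.4 to 48.0 with oEV-ctrl (log2 fold change 0.42, adjusted p = 0.414). Bpgm, which makes bisphosphoglycerate, ranged from 5.17 to 6.44 and from 4.301 to 7.13, and its value of 0.025 became -0.14 after scaling.

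In the oxidative arm of the pentose phosphate pathway, G6pdx, the entry enzyme and the first source of NADPH, had 13.4, 9.93 and 8.48 FPKM with oEV-EMT and 6.47, 6.82 and 10.1 with oEV-ctrl. Pgls, the lactonase that follows, had 37.2, 44.8 and 40.4 against 31.3, 27.6 and 25.5. Pgd, the other NADPH-forming enzyme, had 55.7, 34.7 and 22.1 against 30.3, 24.5 and 30.1. Pgls alone separated the groups, with a log2 fold change of 0.52 ± 0.20 (SE; limma, unadjusted p = 0.0260, adjusted p = 0.263), whereas after scaling it was 0.33 and the groups overlapped. G6pdx and Pgd had log2 fold changes of 0.40 and 0.30 (adjusted p of 0.475 and 0.664). G6pdx overlaps Ikbkg on the opposite strand.

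In the non-oxidative arm, Taldo1, the transaldolase, was the highest of the 33 rows, at 413, 395 and 291.1 FPKM with oEV-EMT and 275, 208 and 290.8 with oEV-ctrl. The groups were separated by less than 1 FPKM, and the log2 fold change was 0.50 ± 0.22 (SE; limma, unadjusted p = 0.0421, adjusted p = 0.306). Rpe, the ribulose phosphate epimerase, had 36.8, 26.6 and 31.3 against 22.5, 19.4 and 24.7, with 0.48 ± 0.21 (unadjusted p = 0.0476, adjusted p = 0.320). Both overlapped after scaling, at 0.30 and 0.29.

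Tkt, the transketolase that passes carbon units between sugars, had 21.1, 16.6 and 9.87 FPKM with oEV-EMT and 14.0, 10.1 and 12.6 with oEV-ctrl, with overlap and a log2 fold change of 0.30. Rpia, the ribose phosphate isomerase, had the lowest fold change of the list, ranging from 3.77 to 7.63 and from 5.75 to 8.64. Its log2 fold change was -0.36 (limma, unadjusted p = 0.213, adjusted p = 0.550), and -0.53 after scaling (unadjusted p = 0.0632).

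Processed pseudogenes could take reads of other genes in the list as well. As a share of the FPKM of the gene plus its pseudogenes, they held 34.3% for Eno1 (mainly Gm4735), 22.1% for Ldhb (Gm5514), 16.04% for Pgam1 (Pgam1-ps2), 10.4% for Pgk1 (Pgk1-rs7 and Gm5537) and 7.18% for Tpi1 (Tpi-rs11). The share was 4.43% for Gpi1 (Gm1840), 2.50% for Pkm (Gm6560), 1.73% for Ldha (Ldha-ps2 and Gm5452) and 0.319% for Taldo1 (Gm17823). For the remaining 23 genes no pseudogene passed the rule for shared sequence. Genes with exons overlapping on the opposite strand were also found for Rpe (Kansl1l) and Pgm1 (Itgb3bp), where reads cannot be divided without strand. Rows that share sequence on the same strand and are not pseudogenes were Cct6a for Slc2a3, Gm26513 for Pfkm, Gm29427 for Pfkfb2, Fam129c for Pgls, Gm49759 for Pkm, Gm22662 and Gm27956 for Ldha, Gm3839 and Gm10358 for Gapdh and, as given above, Eno1b for Eno1.

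Dividing by Gapdh in the same library shifts every gene by the same amount, so the values below describe the reference and not the list. The summed Gapdh reference was 0.57 higher in oEV-EMT in mean log2 FPKM. The median log2 difference of the other 28 tested genes was 0.43 on unscaled log2 FPKM, 0.037 relative to the Gapdh row and -0.14 relative to Gapdh summed with its pseudogenes. For all 11923 other tested genes the median relative to that sum was -0.36. Relative to the sum 22 of 28 (78.6%) lay below 0, against 80.1% of all genes. Tpi1, Pgk1, Bpgm, Slc16a1 and Rpia (5 of 28) were lower without overlap, against a background of 29.9%, and 0 were higher, against 1.85%. Slc2a1 and Adpgk stayed above 0, at 0.75 and 0.65, with overlap.

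The bases before the transcription start of the genes are shown for Slc2a1 and Adpgk, which lay farthest apart between groups on both scales, and for Ldha, of which 1 of 2 windows held the most matches in the list to ACGTG, the core of the element bound by hypoxia-inducible factors. Windows are the 250 bases before a RefSeq start on GRCm38.p6, all on the plus strand, and capitals mark ACGTG or its reverse complement CACGT, which overlap each other within CACGTG and are then counted as 1 match each.
Slc2a1, chr4:119108495-119108744: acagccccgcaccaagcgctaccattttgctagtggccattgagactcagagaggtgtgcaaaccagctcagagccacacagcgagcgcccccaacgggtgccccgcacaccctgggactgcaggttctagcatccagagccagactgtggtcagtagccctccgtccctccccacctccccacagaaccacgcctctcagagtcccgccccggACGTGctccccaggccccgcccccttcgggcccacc
Adpgk, chr9:59291322-59291571: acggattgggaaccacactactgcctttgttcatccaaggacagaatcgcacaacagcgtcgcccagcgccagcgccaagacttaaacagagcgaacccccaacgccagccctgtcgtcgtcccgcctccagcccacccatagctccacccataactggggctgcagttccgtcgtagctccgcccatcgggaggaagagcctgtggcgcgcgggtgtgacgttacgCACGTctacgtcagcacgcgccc
Ldha, chr7:46845554-46845803: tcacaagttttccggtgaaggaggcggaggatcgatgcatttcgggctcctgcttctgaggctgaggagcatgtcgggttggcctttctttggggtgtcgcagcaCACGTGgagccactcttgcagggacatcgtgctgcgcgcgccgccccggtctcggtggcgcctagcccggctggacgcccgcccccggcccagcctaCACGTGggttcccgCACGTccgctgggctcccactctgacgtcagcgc

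The window shown for Ldha held 5 matches and its other window (chr7:46846832-46847081) held 0, and those of Slc2a1 and Adpgk held 1 each. Of the 32 genes of the list with a window (Slc2a3 had none), 15 (46.9%) had at least 1 match in any of their windows. The share was 18.5% of 27025 genes and 25.6% of the 7911 tested genes with a window, whereas the 32 include genes too low to be tested. More windows give a gene more chances of a match, and neither their number nor their base composition was matched. The 32 list genes had 47 windows, and the 27025 genes had 32851. Of the other genes with an unadjusted p of at most 0.05, Eno1, Pgls, Rpe and Taldo1 had no match. A match describes letters only.

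Among 73 other genes of sugar metabolism on a list fixed by symbol, 40 were tested and none passed both thresholds. Their median log2 fold change was 0.36, or 0.19 above the median of all genes. At an unadjusted p of at most 0.05, 6 of 40 (15%) were higher in oEV-EMT, against the background of 12.8%, and 0 were lower. After scaling these were 3 (7.5%; Galt, Gfpt2 and Myc) and 1 (2.5%; Egln1), against 6.43% and 6.39%.

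Galt, which brings galactose into glycolysis, had 32.4, 30.4 and 18.3 FPKM with oEV-EMT and 13.0, 11.6 and 18.1 with oEV-ctrl (log2 fold change 0.86 ± 0.27, SE; limma, adjusted p = 0.198). Bsg, or basigin, the partner that carries MCT1 to the membrane, had 277, 304 and 257 against 223, 147 and 180 (0.62 ± 0.21, adjusted p = 0.215). Myc, a transcription factor with glycolytic genes among its targets, had 22.7, 12.7 and 17.1 against 10.4, 9.29 and 10.4 (0.71 ± 0.24, adjusted p = 0.224). As deposited, the groups overlapped for none of the 3, and none passed the test. After scaling the log2 fold changes were 0.68, 0.43 and 0.53, and the groups overlapped for Bsg. Gfpt2 of the hexosamine pathway, the pyruvate dehydrogenase kinase Pdk3 and the glucose phosphatase G6pc3 had log2 fold changes of 0.61, 0.67 and 0.50, with adjusted p between 0.234 and 0.282.

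Of the 11 carriers on that list, counted with the carrier partner Bsg, 2 were tested (Slc2a8 and Bsg). Both lay above the median of all genes. The same held for 5 of 6 tested isoforms or relatives of list enzymes and for 5 of 5 genes of gluconeogenesis and its brakes. It also held for 4 of 4 hexosamine genes, 6 of 9 polyol and other entry genes and 3 of 6 glycogen genes. Among 8 tested regulators 3 lay above it. Egln1, the oxygen-sensing hydroxylase that marks hypoxia-inducible factors for decay, had 39.6, 35.2 and 35.4 FPKM with oEV-EMT and 51.0, 42.5 and 43.9 with oEV-ctrl, the only gene of this list lower without overlap as deposited (log2 fold change -0.31; limma, adjusted p = 0.476). Hif1a differed by 0.026.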

How the data were processed

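Polyadenylated RNA from 6 libraries of 10 blastocysts was sequenced in pairs. According to the methods and processing notes, the authors aligned reads (mm10), assembled transcripts with StringTie and used DESeq2 for their own calls. The aligner and the handling of multi-mapped reads are not given in the sources used here. The authors deposited 1 value per gene and library. Although the text describes TPM, library totals were above 1000000, so the deposited values were taken as FPKM. Read totals are not given. Relative depth was derived from the steps of low values times transcript length, and no counting interval was computed.

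Genes with at least 1 FPKM in at least 3 libraries were fitted as log2(FPKM + 1) with limma 3.58.1 (R 4.3.3; trended, robust variance), without further scaling, adjusted by Benjamini-Hochberg. The code was tested on simulated data. For single values an exact permutation test was used, two-sided (scipy 1.17.1). Shared sequence was found as identical stretches of 50 bases in GENCODE M21 transcripts (GRCm38), counted when they made up at least 10% of the stretches of either gene. All 33 genes matched by identifier. Median-of-ratios and upper quartile scaling, scaling to 1000000, a pseudocount of 0.1, other filters, a replicate block, library weights and the omission of single libraries were alternatives. Markers of cumulus and granulosa cells, oocytes, oviduct and blood summed to at most 2.68 FPKM. The first 2 of these lists were higher in oEV-EMT without overlap (1.54 to 2.68 against 0.981 to 1.14, and 1.22 to 1.81 against 0.371 to 0.909), and 1 gene carried most of each difference (Amhr2, 1.03 to 2.07 against 0.464 to 0.737, and Zp3, 1.08 to 1.61 against 0.120 to 0.792). Ptx3, Cyp19a1, Foxl2, Bmp15, Oosp1, Foxj1, Hbb-bs and Ptprc were below 0.1, and the oviduct, blood and primitive endoderm sums overlapped. Primitive endoderm markers summed to 132 to 259 and 180 to 237 FPKM, mostly from Dab2. Of these markers Gata4 separated the groups (7.46 to 11.3 with oEV-EMT against 4.17 to 5.07 with oEV-ctrl), and the others overlapped.

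Per-library values are given for carriers, hexokinases, phosphofructokinases, Pfkfb2, Pfkfb3, Gapdh, Pgk1, Pkm, Ldha, Ldhb, G6pdx, Pgd, Tkt, Taldo1 and any list gene with an unadjusted p of at most 0.05 or without overlap. Other list genes are given by range. Of the other sugar genes, those with an unadjusted p of at most 0.05 were named. Egln1, Hif1a and Pfkfb1 were added after their values were seen. The list and the other lists were chosen with earlier results of these data known.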

Additional observations from a re-analysis of the deposited data

How the results depend on the processing

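No list gene that was tested passed both thresholds under any alternative. All 33 were tested only with no filter, and 28 or 29 otherwise. Over all tested genes the count past both was 0, but 4 with at least 1 FPKM in all 6 libraries, 104 with library weights and 0 to 16 on leaving out each library (16 without oEV-ctrl 3). The cause was not tested. Whether the replicate numbers pair the libraries is not known. Same-numbered libraries correlated at 0.119, -0.044 and 0.039 in their deviations, and not every library did so best with its own number. With 3 libraries per group these correlations cannot decide it. The replicate block gave 21 genes past both thresholds, with 0 list genes among them. It gave 4 of 29 list genes at an unadjusted p of at most 0.05. Of all genes, 11.2% were then higher and 2.36% lower at that p.

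List genes higher at an unadjusted p of at most 0.05 (6 as reported) were 2 with median-of-ratios or upper quartile scaling and 2 to 12 on leaving out each library (12 without oEV-EMT 3, 3 without oEV-EMT 1 or 2, 2 without oEV-ctrl 2), and those lower 0 to 1. The share of all genes higher at that p was 12.8% as reported, 6.43% and 4.61% with the scalings, 18.4% with weights, and 14.0%, 13.4%, 9.34% and 8.27% without oEV-EMT 3, 1, 2 and oEV-ctrl 2. Without overlap, 7 higher became 2 with either scaling and 7 to 18 on leaving out a library (18 without oEV-EMT 3, 12 without oEV-ctrl 3), and 0 lower became 1 with upper quartile scaling and 0 to 1. The share of all genes higher without overlap moved too, from 18.1% to 9.85% and 7.59% with the scalings. It was 30.6%, 28.0% and 27.2% without oEV-EMT 3, oEV-ctrl 3 and oEV-EMT 1. Of all genes, 2.55% were lower at an unadjusted p of at most 0.05 as reported, and 6.39% and 8.08% with the scalings. Lower without overlap were 4.34% as reported, 10.3% and 12.5% with the scalings, 3.48% with no filter and 6.49% without oEV-ctrl 2. For the other sugar genes, 6 higher became 3, 1 and 13 (median-of-ratios, upper quartile, weights; 2 to 10 leaving out a library, with 10 without oEV-EMT 1 and 2 without oEV-ctrl 2), 0 lower became 1 and 2 (both scalings), 9 higher without overlap became 4 and 2 (10 to 18, with 18 without oEV-EMT 3 and 15 without oEV-EMT 1), and 1 lower without overlap became 2, 2 and, with no filter, 2 (1 to 3, with 3 without oEV-ctrl 2).

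Some log2 fold changes turned below 0. With median-of-ratios and upper quartile scaling these were Hk2 (-0.085, -0.15), Pfkp (-0.013, -0.061), Pgk1 (-0.011, -0.079), Bpgm (-0.14, -0.20), Slc16a1 (-0.062, -0.12) and Pgm1 (-0.10, -0.16), and with upper quartile scaling Pfkfb2 (-0.024). With weights they were Hk2 (-0.030) and Bpgm (-0.089). Pgm1 summed with the genes sharing its sequence gave -0.083. With that sum and median-of-ratios scaling together, an alternative chosen after seeing the data, Pfkp gave -0.084, Pgk1 -0.0069 and Pgm1 -0.27. On leaving out a library the ranges were -0.20 to 0.37 for Hk2, -0.13 to 0.34 for Pfkp, -0.14 to 0.17 for Bpgm, -0.022 to 0.63 for Pgd, -0.17 to 0.31 for Pgm1 and -0.81 to 1.09 for Gapdh.

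Relative to Gapdh summed with its pseudogenes, a reference also chosen after seeing the data, the median turned from 0.43 to -0.14, as all genes move by the same amount under a reference (their median was then -0.36). The difference in the Slc2a1 share fell to 1.89 percentage points when each gene was summed with those sharing its sequence, since all of the Cct6a row was then added to Slc2a3, and that in the Hk2 share turned from 0.080 to -0.37. On leaving out a library, differences in shares changed sign within -0.0046 to 0.163 points for Hk2, -0.0497 to 0.0332 for Aldoc, -0.0106 to 1.31 for Ldhb, -0.262 to 0.0325 for Slc16a1 and -5.67 to 0.156 for Pgm1.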

Other observations

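Some enzymes known from muscle, liver or the polyol and nucleotide pathways were abundant in these blastocysts, and they were singled out after their values were seen. Pgam2, the muscle phosphoglycerate mutase, ranged from 84.5 to 133 FPKM with oEV-EMT and from 49.2 to 106 with oEV-ctrl, with a mean above that of the ubiquitous Pgam1 in both groups. Fbp2, the muscle fructose bisphosphatase, ranged from 301 to 658 and from 334 to 460, whereas the liver form Fbp1 ranged from 14.1 to 44.3 over all 6 libraries. Sord, which converts sorbitol to fructose, ranged from 214 to 278 and from 168 to 223. Prps1, which makes the activated ribose used for nucleotides, ranged from 323 to 463 and from 338 to 426. In each of these 5 genes the groups overlapped, and no log2 fold change passed the test.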
